A study of Mus musculus with 28 samples.

Results

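Endothelial cells (ECs) and mesenchymal stromal cells (MSCs) of the bone lining fraction were compared with each other in wild-type mice, over all genes measured. The 10 libraries, 5 per population, were those labelled WT with an EC or MSC phenotype, of 28 in the series. The series as a whole compared these niche populations, and bone marrow mononuclear cells (MNCs), between Flt3+/+ mice and mice homozygous for an internal tandem duplication of the receptor Flt3 (Flt3 ITD/ITD). All mice were C57 BL6 and aged 8 to 10 wk, and the labels name no treatment. The cells came from crushed and collagenase-digested femurs and tibias. ECs had been sorted as CD45-Ter119-CD31+ and MSCs as CD45-Ter119-CD31-CD166-Sca1+ cells, with 100 cells per library and each library given as a biological replicate. Pdgfra was not used in the MSC gate, which therefore defines the population by Sca1 and by the absence of the other markers.

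ECs line the sinusoids and arterioles of bone marrow, where they exchange lipids and solutes with blood, hold leukocytes and present membrane-bound signals to blood stem cells. MSCs lie around these vessels and on bone surfaces, produce the collagenous matrix and give rise to bone, cartilage and fat cells. Both populations are known sources of factors that keep hematopoietic stem cells in the marrow.

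Total counts ranged from 13155871 to 33880743 in the EC libraries and from 12300624 to 33714502 in the MSC libraries. Between 13338 and 14013 genes had at least 3 counts in an EC library and between 13692 and 15209 in an MSC library. Levels are given as RPKM, the count scaled to transcript length and to the total of the library, as mean ± SD over 5 libraries. Replicate error was large, with a biological coefficient of variation of 1.06 between the ECs and 0.772 between the MSCs. In bulk libraries, fewer cells with a transcript and less transcript per cell cannot be told apart.

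A gene was called higher in a population at an adjusted p-value below 0.1 in edgeR's quasi-likelihood test and a ratio of mean RPKM of at least 2. Of 13545 genes tested, 1196 (8.83%) were called higher in ECs and 1301 (9.61%) higher in MSCs. Without regard to the call, every EC library lay above every MSC library for 10.4% of the genes tested, and every MSC library above every EC library for 8.33%. Of the called genes, 986 of the 1196 in ECs (82.4%) and 1009 of the 1301 in MSCs (77.6%) had no overlap between the populations. The ratio of mean RPKM was at least 16 for 398 of the genes higher in ECs and for 721 of those higher in MSCs. Among the latter, 251 had at most 3 counts in every EC library, and 109 of the genes higher in ECs had at most 3 counts in every MSC library. The median log2 fold change of EC over MSC, the scale of all fold changes below, was 0.05 over all genes tested. For each named gene without overlap, an exact two-sided permutation test of the mean RPKM gave p = 0.00794, the smallest that the divisions of 10 libraries allow. Without overlap this test can give no other value, so it restates the separation and adds no evidence to it. Genes listed at 0 in every library of a population are compared with a floor of 3 counts over its 5 libraries.

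**Figure D1:**
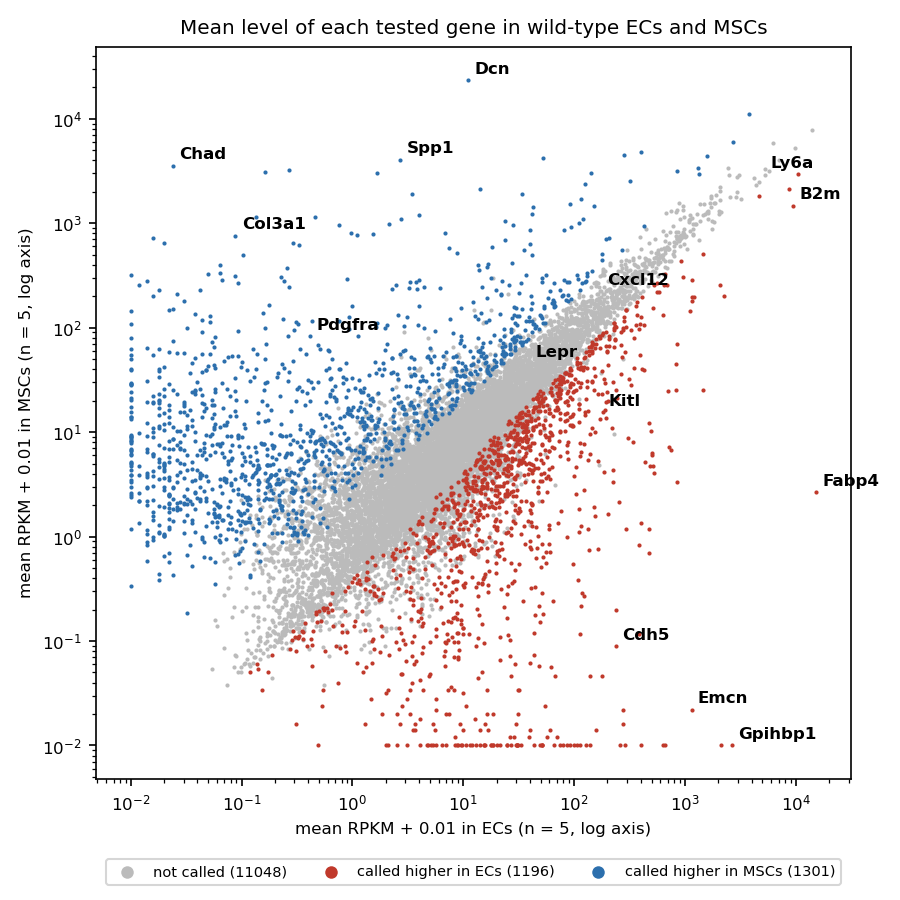
Mean RPKM of each tested gene in the 5 EC libraries (x axis) and the 5 MSC libraries (y axis), both with 0.01 added and on log axes. Genes called higher in ECs (1196, red) lie below the diagonal and those called higher in MSCs (1301, blue) above it, while Ly6a, Cxcl12 and Lepr lie among the 11048 genes that were not called.

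The sort markers served as a check of the labels and are no result. Pecam1, which encodes CD31, had an RPKM of 213, 182, 323, 354 and 301 in the EC libraries. In the MSC libraries it had 6 counts in all, in 1 library. Ly6a, which encodes Sca1 and belongs to a family of near-identical genes, was 5229 ± 600.0 in ECs and 2916 ± 125 in MSCs, so its transcript was abundant on either side of a gate that used it for MSCs alone. Ptprc, which encodes CD45, did not exceed an RPKM of 0.12 in any of the 10 libraries.

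Markers that the gates did not use followed the labels for ECs. Cdh5 (VE-cadherin, the adhesion molecule of endothelial junctions; chromosome 8, 104101613 to 104144504 in GRCm38.p6) was 246, 251.75, 235, 237 and 225 in the ECs. It did not exceed 0.19 in any MSC library (log2 fold change 11.40, SE 1.10, adjusted p = 3.67e-05). A list of 27 genes for endothelial identity holds Pecam1, whose difference the gate fixed. All 26 other genes were called higher in ECs, each without overlap, with a median log2 fold change of 8.88. With Pecam1, the list summed to an RPKM of 4973 to 6674 in the EC libraries, at most 129.8 in the MSC libraries and 57.9 to 85.5 in the wild-type MNCs.

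Markers of MSCs followed the labels in part. Pdgfra, a receptor for platelet-derived growth factor (chromosome 5, 75151322 to 75198206), was 92.1, 107, 64.2, 73.6 and 75.6 in the MSCs and 1.82, 0.02, 0.16, 0 and 0.02 in the ECs (log2 fold change -7.79, SE 1.52, adjusted p = 0.00436). Pdgfrb, the second receptor, was 11.4, 24.9, 12.9, 12.1 and 21.6 in the MSCs and 3.85, 1.22, 0.02, 1.12 and 0.06 in the ECs (log2 fold change -3.91, SE 1.12, adjusted p = 0.0379). Every MSC library lay above every EC library for both genes. Of 27 genes listed for mesenchymal identity, 21 were called higher in MSCs and 1, Nes, higher in ECs, with a median of -6.61 over the 26 tested.

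Lepr, the leptin receptor that is widely used to mark perivascular stromal cells, was not called. It was 48.9, 22.2, 41.7, 45.5 and 37.2 in the ECs and 19.8, 60.3, 24.9, 76.5 and 47.9 in the MSCs, and the ranges overlapped (log2 fold change -0.39, SE 0.39, adjusted p = 0.6). Nes, an intermediate filament gene also used for perivascular cells, was 1.35, 0.84, 4.83, 8.47 and 1.69 in the ECs and at most 0.35 in the MSCs (log2 fold change 5.15, SE 1.68, adjusted p = 0.0649). Its call was lost in 5 of the other settings or with 1 library left out, among them an adjusted p-value of 0.05 and leaving out replicate 4 of the ECs or replicate 1 or 2 of the MSCs. Thy1 lay higher in every MSC library (3.59 ± 4.37 in ECs and 20.4 ± 7.05 in MSCs) and had an adjusted p-value of 0.104, which did not pass. It was called higher in MSCs in 9 of 23 other settings, among them DESeq2 and leaving out replicate 3 or 5 of the ECs. The MSC fraction also carried the transcripts of cartilage, tendon and bone described further on, and is named here by its sort.

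The promoters of 3 of the genes with the widest separation are shown because each holds one of the short motifs that were counted across all promoters. Emcn (endomucin, a sialomucin of capillary and venous ECs) was 827, 1409, 1279, 1053 and 1170.4 in the ECs and had 1 count in all MSC libraries together. Egfl7, a secreted protein of vessel walls, was 611, 689.9, 606, 632 and 786 in the ECs and was listed at 0 in all MSC libraries, a difference of at least 42279.9-fold when the MSCs are set to a floor of 3 counts over the group. Chad (chondroadherin, a cartilage matrix protein) was 3631, 2440.0, 2489, 4471 and 4710.0 in the MSCs and had 4 counts in all EC libraries together. The windows run from 250 bases before to 50 bases after a RefSeq start site (GRCm38.p6), the first one listed where a gene has several. For Emcn this was not the most upstream start, as the gene begins at 137341062. The windows lie at chr3:137340828-137341127 for Emcn, chr2:26580833-26581132 for Egfl7 and chr11:94564797-94565096 for Chad, all on the plus strand. Capitals mark the core of sites for ETS factors, AGGAAG or its reverse complement CTTCCT, in Emcn and Egfl7, and the TATA box TATAAA in Chad.
Emcn: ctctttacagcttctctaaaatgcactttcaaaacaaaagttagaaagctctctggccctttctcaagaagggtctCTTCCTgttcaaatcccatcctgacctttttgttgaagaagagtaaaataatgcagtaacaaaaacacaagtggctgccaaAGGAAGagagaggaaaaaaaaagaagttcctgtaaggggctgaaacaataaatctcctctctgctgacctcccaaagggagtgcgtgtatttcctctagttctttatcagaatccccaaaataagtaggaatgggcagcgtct
Egfl7: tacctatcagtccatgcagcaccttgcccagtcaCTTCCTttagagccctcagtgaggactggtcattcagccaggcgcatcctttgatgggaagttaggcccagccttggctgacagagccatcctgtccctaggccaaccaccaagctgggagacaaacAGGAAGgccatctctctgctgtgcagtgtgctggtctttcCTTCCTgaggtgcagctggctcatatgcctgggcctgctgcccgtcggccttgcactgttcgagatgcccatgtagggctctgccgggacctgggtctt
Chad: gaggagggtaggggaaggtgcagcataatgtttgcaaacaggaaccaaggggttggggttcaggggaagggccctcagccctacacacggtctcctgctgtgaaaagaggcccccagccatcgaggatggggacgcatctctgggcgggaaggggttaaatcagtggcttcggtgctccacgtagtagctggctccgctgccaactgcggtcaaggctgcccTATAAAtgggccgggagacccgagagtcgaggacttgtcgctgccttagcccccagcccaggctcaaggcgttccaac

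Counted from the start site, the ETS core began at -174 and -93 in Emcn and at -216, -89 and -49 in Egfl7, and the TATA box at -28 in Chad. On either strand, AGGAAG was present in 39.7% of 804 promoters of genes called higher in ECs, 31.2% of 892 promoters of genes called higher in MSCs and 33.2% of 9309 promoters of all genes tested that had a window. TATAAA was present in 9.58%, 10.9% and 7.33%, respectively. The SOX motif ACAATG was in 7.34%, 7.17% and 7.08%, the TEAD motif GGAATG in 15.3%, 15.5% and 12.2%, and the E-box CANNTG in 65.0%, 62.8% and 63.2%. Over all 27025 genes with a window, tested or not, the shares were 35.1% for AGGAAG, 14.2% for TATAAA, 12.8% for ACAATG, 14.6% for GGAATG and 72.1% for CANNTG. These shares describe letters in a window, and binding was not measured.

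Genes of lipid uptake were higher in ECs, and 11 of the 15 listed for caveolae, transcytosis and lipid uptake were called, with none called higher in MSCs (median 3.94). Fabp4, a carrier of fatty acids inside the cell that is expressed in capillary ECs as well as in fat (chromosome 3, 10204342 to 10208616), had the highest level of any gene called higher in ECs, at 14614, 18006, 16462, 11604 and 15980.2. In the MSCs it was 4.57, 0, 0, 8.64 and 0.05, so the populations did not come near each other (log2 fold change 12.32, SE 1.81, adjusted p = 0.00068). Gpihbp1, which carries lipoprotein lipase to the capillary surface, was 2537, 2948, 2169.7, 1977 and 3617 in the ECs and listed at 0 in all MSC libraries (at least 107281-fold). Cd36, a fatty acid and scavenger receptor, was 1726, 2274, 2776, 1551 and 2279 and also listed at 0 in all MSC libraries (at least 355990.0-fold).

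Caveolin genes, whose products form the membrane pits of ECs, were present in both populations and higher in ECs. Cav1 was 2073 ± 254 in ECs and 258 ± 58 in MSCs (log2 fold change 2.80, SE 0.19, adjusted p = 2.7e-06) and Cav2 was 838 ± 267 in ECs and 44.8 ± 14.4 in MSCs (adjusted p = 7.03e-06). Ptrf, which encodes the caveolar coat protein cavin-1, was 351 ± 94.2 in ECs and 206 ± 31.9 in MSCs, with an adjusted p-value of 0.0963 but a ratio under 2. Of 12 genes listed for adipocytes, 6 of them tested, 3 were called higher in ECs (Fabp4, Lpl and Apoe). The adipocyte markers Plin1 and Cidec were at an RPKM of 0.018 and 0 in ECs. Pparg was 36.9 ± 27.5 in ECs and 3.46 ± 7.33 in MSCs and was not called (adjusted p = 0.357). Cfd and Retn, with too few counts to test, were 5.29 ± 11.7 and 1.66 ± 3.72 in ECs and 0 in MSCs. Adipoq was 18.6 in MSC replicate 4 and at most 0.11 in the other MSCs, and was 3.68 ± 7.67 in ECs. The part of adipocytes in the EC values was not tested.

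Of 19 junction genes, 12 were called higher in ECs and 1, Cdh11, the cadherin of mesenchymal cells, higher in MSCs (1.15 ± 0.603 in ECs and 17.4 ± 7.74 in MSCs; log2 fold change -4.09, SE 0.53, adjusted p = 0.000288). F11r, which encodes the tight junction protein JAM-A, was 62.2, 123, 168, 67.4 and 148 in the ECs and at most 0.18 in the MSCs (log2 fold change 9.81, SE 0.52, adjusted p = 6.38e-07). Ctnnb1 (beta-catenin, which links cadherins to actin) was 358 ± 41.7 in ECs and 107 ± 29 in MSCs (log2 fold change 1.53, SE 0.20, adjusted p = 0.000327). Gja1, the connexin 43 gene, was 242 ± 71.7 in ECs and 210.4 ± 36.8 in MSCs and its fitted difference was 0.01 on the log2 scale (adjusted p = 0.99).

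Of the genes that ECs use to hold leukocytes, 8 of 18 were called higher in ECs and 1, the proteoglycan gene Vcan, higher in MSCs. Icam2 was 541, 459, 503, 239 and 281 in the ECs and listed at 0 in the MSCs (at least 20633-fold). Darc, the chemokine-binding receptor of venular ECs now named Ackr1, was 165, 642, 579.8, 669 and 70.1 in the ECs and 36.1, 46.6, 37.7, 23.2 and 52.8 in the MSCs (log2 fold change 3.22, SE 0.58, adjusted p = 0.00254). The EC libraries thus spread widely for Darc but stayed above the MSCs. Icam1, which inflammation induces, was 81.4 ± 21.1 in ECs and 57.9 ± 34.7 in MSCs and overlapped (adjusted p = 0.726). Cd34, often used as an endothelial and stem cell marker, was 292 ± 58 in ECs and 367 ± 108 in MSCs and overlapped as well (adjusted p = 0.159).

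For sinusoidal endothelium, 11 of 15 genes were called higher in ECs (median 3.65 over 13 tested), and for arterial endothelium 7 of 16 (median 2.43 over 13 tested). No gene of either list was called higher in MSCs. Ephb4, the venous receptor for ephrin-B2, was 29.4 ± 11.3 in ECs and 2.01 ± 1.03 in MSCs (log2 fold change 3.65, SE 0.62, adjusted p = 0.00172). Its arterial ligand Efnb2 was 61.3 ± 15.3 in ECs and 9.86 ± 5.68 in MSCs (log2 fold change 2.43, SE 0.42, adjusted p = 0.0021). Gja4, an arterial connexin gene, was 8.7, 51.3, 54, 76.8 and 8.92 in the ECs, a range in which replicates 1 and 5 lay low, and at most 0.26 in the MSCs (log2 fold change 8.97, SE 1.59, adjusted p = 0.00243). Prox1, the defining transcription factor of lymphatic ECs, was at a mean of 0.106 in ECs and 0.014 in MSCs. Lyve1, listed for both sinusoidal and lymphatic endothelium, had too few counts to test, at 6.64 ± 13.7 in ECs and 1.22 ± 1.69 in MSCs. Replicate 5 of the ECs held 2779 counts of Lyve1 and the other ECs at most 72.

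Of 15 genes of antigen presentation, 7 were called higher in ECs and none higher in MSCs (median 2.05 over 11 tested). B2m, the light chain shared by class I molecules, was 9980.5, 9971, 10846, 9234 and 6988 in the ECs and 1921, 1367, 1408, 1393 and 1268 in the MSCs (log2 fold change 2.47, SE 0.17, adjusted p = 2.9e-06). The class I heavy chain genes H2-K1 (636 ± 129 in ECs and 132 ± 19 in MSCs; log2 fold change 2.05, SE 0.20, adjusted p = 3.37e-05) and H2-D1 (1464 ± 155 in ECs and 509 ± 108 in MSCs; log2 fold change 1.33, SE 0.16, adjusted p = 0.000191) followed, with the limit that reads shared within this gene family had been discarded. Psmb8, an immunoproteasome subunit, was 133 ± 20.4 in ECs and 5.35 ± 2.17 in MSCs (log2 fold change 4.43, SE 0.37, adjusted p = 1.14e-05). The class II invariant chain gene Cd74 varied from library to library, at 87.9, 224, 359, 20.4 and 0.7 in the ECs, and was listed at 0 in every MSC library (at least 7344-fold; adjusted p = 0.00621).

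**Figure D2:**
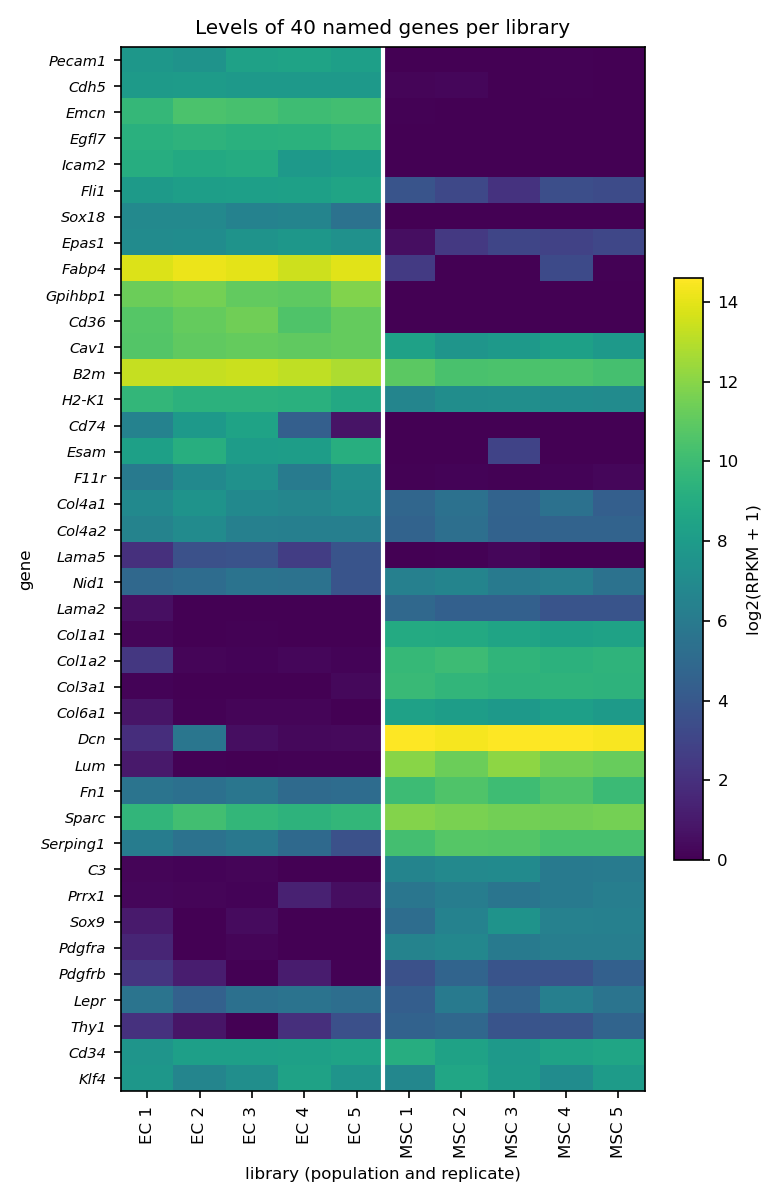
RPKM of 40 named genes (rows) in the 5 EC and 5 MSC libraries (columns), coloured as log2(RPKM + 1) from low (dark) to high (yellow). Fabp4 and B2m were bright in all ECs and Dcn in all MSCs, while Lepr, Cd34 and Klf4 had a similar colour in both populations and Cd74 ranged from 0.7 to 359 among the ECs.

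All 14 genes of fibrillar and beaded collagens were called higher in MSCs without overlap, with a median log2 fold change of -9.98. They summed to an RPKM of 2355 to 3166 in the MSC libraries and 0.52 to 11.4 in the ECs. Col1a1, a chain of the main collagen of bone and tendon (chromosome 11, 94936224 to 94953042), was 480.1, 458, 369, 318 and 344 in the MSCs and 0.17, 0.02, 0.06, 0.02 and 0 in the ECs (log2 fold change -13.25, SE 0.96, adjusted p = 4.71e-06). Col3a1 was 937, 782, 680.3, 712 and 686 in the MSCs and at most 0.23 in the ECs (log2 fold change -13.39, SE 1.07, adjusted p = 8.79e-06).

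Small proteoglycans, which bind collagen, were also higher in MSCs. Dcn (decorin; chromosome 10, 97479500 to 97518163) had the highest level of any gene called higher in MSCs, at 23957, 21731, 24303, 24690.2 and 22075. Among the ECs it was 2.81, 51.1, 0.45, 0.25 and 0.29, with the most in replicate 2 (log2 fold change -11.26, SE 1.89, adjusted p = 0.00164). Lum (lumican) was 4033, 2497, 4389, 2739.5 and 2377 in the MSCs and did not exceed 1.02 in the ECs (log2 fold change -13.89, SE 1.10, adjusted p = 8.42e-06). Of 29 genes for stromal matrix and its cross-linkers, 19 were called higher in MSCs and none higher in ECs (median -4.32 over 28 tested).

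Some matrix genes were also present in ECs. Sparc, a collagen-binding glycoprotein of many cell types, was 842 ± 176 in ECs and 3133 ± 420.2 in MSCs (log2 fold change -2.10, SE 0.17, adjusted p = 8.34e-06). Fn1 (fibronectin) was 41.4 ± 8.37 in ECs and 1223 ± 267 in MSCs (log2 fold change -6.01, SE 0.29, adjusted p = 2.8e-07), and the log2 ratio of its mean RPKM was -4.88. Fbln2 was 108 ± 20.4 in ECs and 138 ± 34 in MSCs, with overlapping libraries (adjusted p = 0.133).

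The basement membrane, which lies between these cell types, drew on both. Of 22 genes, 5 were called higher in ECs (Col4a1, Col4a2, Agrn, Nid2 and Lama5), 3 higher in MSCs (Nid1, Lamb2 and Lama2) and 10 of the 18 tested were not called (median 0.39). The call of Lamb2 was lost without EC replicate 3 or MSC replicate 2 or 5. Col4a1, a chain of the network-forming collagen IV (chromosome 8, 11198423 to 11312889), was 119, 176, 122, 102 and 131 in the ECs and 27.1, 41.8, 24.4, 42 and 20.4 in the MSCs (log2 fold change 1.85, SE 0.26, adjusted p = 0.000448). Its neighbour Col4a2, which shares the same promoter region, was 92.3 ± 23.2 in ECs and 27.1 ± 7.23 in MSCs (log2 fold change 1.56, SE 0.23, adjusted p = 0.000689).

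Among the laminin alpha chains, Lama5 was called higher in ECs and Lama2 higher in MSCs. Lama5, of endothelial laminins, was 3.12, 11.1, 12.1, 5.16 and 12.9 in the ECs and at most 0.2 in the MSCs (log2 fold change 7.07, SE 1.11, adjusted p = 0.00102). Lama2, of the laminins of muscle and stroma, was 29.8, 21.6, 21.3, 12.9 and 12.8 in the MSCs and 0.49, 0, 0, 0 and 0.01 in the ECs (log2 fold change -7.84, SE 1.51, adjusted p = 0.00403). Lama4, the other endothelial alpha chain, was 32.1 ± 13.9 in ECs and 18.3 ± 5.73 in MSCs and overlapped (adjusted p = 0.307), and Lama3 (3.49 and 1.46) was not called (adjusted p = 0.656). Nid1, which joins laminin to collagen IV, was 33.8 ± 13.4 in ECs and 72 ± 19 in MSCs (log2 fold change -1.31, SE 0.33, adjusted p = 0.021), a call that was lost without replicate 5 of the ECs or without replicate 2 of the MSCs.

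Of 17 complement genes, 8 were called higher in MSCs and 1 higher in ECs (median -4.0 over 12 tested). C3, the central component, was 94.8, 115, 127, 61.9 and 66.7 in the MSCs and at most 0.17 in the ECs (log2 fold change -10.40, SE 1.05, adjusted p = 4.94e-05). Serping1, the inhibitor of C1 proteases, was 42.8 ± 22.6 in ECs and 1432 ± 233 in MSCs (log2 fold change -5.27, SE 0.46, adjusted p = 1.63e-05). Cd59a, a membrane-bound inhibitor of complement, was the gene called higher in ECs (144 ± 50.2 in ECs and 10.9 ± 5.31 in MSCs; log2 fold change 3.53, SE 0.43, adjusted p = 0.000182).

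**Figure D3:**
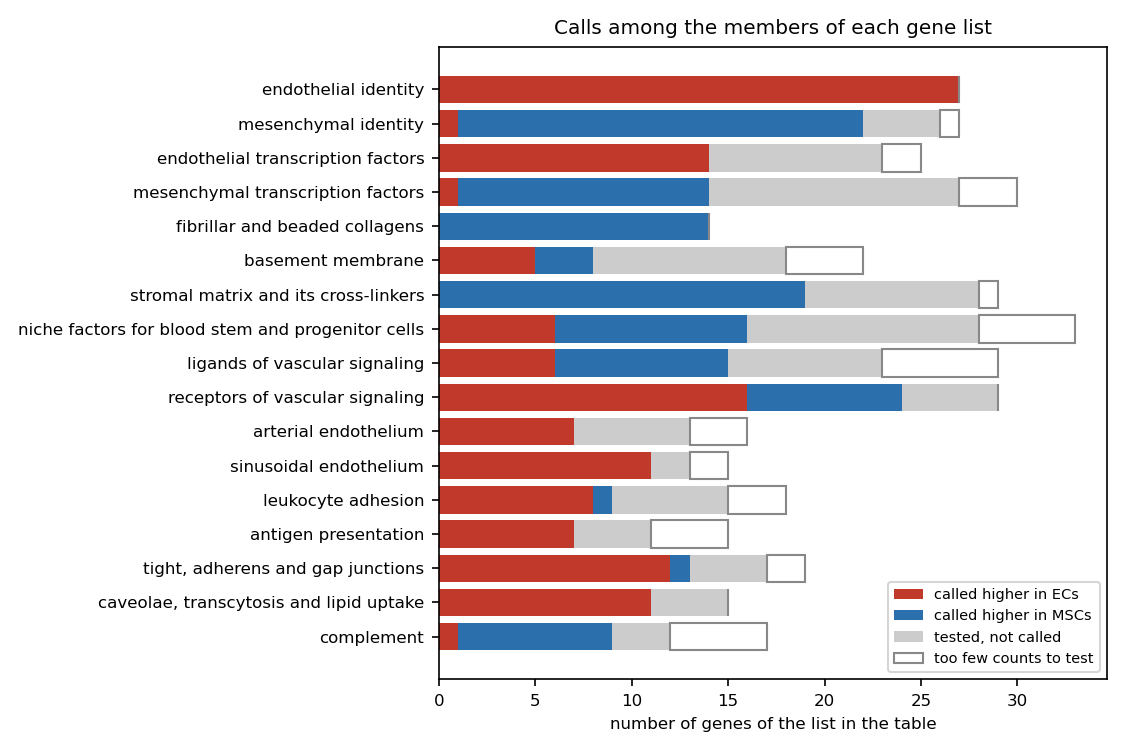
Number of genes of each of 17 lists that were called higher in ECs (red), called higher in MSCs (blue), tested and not called (grey) or had too few counts to test (open). Endothelial identity (27 of 27, Pecam1 of the sort gate included) and the collagens (14 of 14) went wholly to one population, while basement membrane (5 and 3), niche factors (6 and 10) and vascular receptors (16 and 8) went to both.

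Of 25 listed endothelial factors, 14 were called higher in ECs and none higher in MSCs (median 2.96 over 23 tested). Fli1, an ETS factor required for endothelial and blood development, was 248, 292, 302, 312 and 366 in the ECs and 12.6, 8.08, 3.48, 10.4 and 8.9 in the MSCs (log2 fold change 4.92, SE 0.34, adjusted p = 3.42e-06). Sox18, which acts in vessel and lymphatic development, was 117, 118, 87.7, 94.3 and 44 in the ECs and listed at 0 in every MSC library (at least 6319-fold). Ets1, a second ETS factor, was 83.3 ± 22.1 in ECs and 12.7 ± 9.25 in MSCs (log2 fold change 2.46, SE 0.48, adjusted p = 0.00417). Klf4, which is known in ECs for its response to flow, was 196 ± 91.4 in ECs and 229 ± 116 in MSCs and overlapped (adjusted p = 0.537).

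On the mesenchymal side, 13 of 30 listed factors were called higher in MSCs and 1, Tcf4, higher in ECs (median -4.13 over 27 tested). Prrx1, a homeobox factor of limb mesenchyme, was 52.2, 72.9, 49.2, 64.2 and 75.4 in the MSCs and 0.21, 0.16, 0.12, 1.54 and 0.46 in the ECs (log2 fold change -7.25, SE 0.78, adjusted p = 7.73e-05). Sox9, the regulator of cartilage formation, was 36.1, 86.3, 183, 83.7 and 82.2 in the MSCs, with the highest value in replicate 3, and at most 1.06 in the ECs (log2 fold change -8.57, SE 1.38, adjusted p = 0.00121). Ebf1, known in stromal precursors as well as in B cells, was 40.1 ± 16.5 in ECs and 60.5 ± 11.7 in MSCs (adjusted p = 0.13), and Nfib was 104 ± 17.8 in ECs and 71.8 ± 10.3 in MSCs (adjusted p = 0.445). Tcf4, an E protein of many tissues, was 87.1 ± 11 in ECs and 30.6 ± 4.45 in MSCs (log2 fold change 1.23, SE 0.18, adjusted p = 0.000569).

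Factors known to act on blood stem and progenitor cells came from both populations, with 6 of 33 called higher in ECs (Kitl, Vcam1, Jag1, Jag2, Dll1 and Dll4) and 10 higher in MSCs. The median over the 28 tested was -1.28. Those in ECs encode membrane proteins, and 4 of them are ligands of Notch receptors.

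Kitl (stem cell factor, the ligand of the receptor Kit; chromosome 10, 100015615 to 100100416) was 104, 251, 209, 157 and 185 in the ECs. In the MSCs it was 17, 27.6, 0.9, 28.2 and 4.03, with replicates 3 and 5 low, and no library of either population overlapped (log2 fold change 3.29, SE 0.76, adjusted p = 0.012). Vcam1, through which blood cells adhere, was 101.22, 145, 91.5, 84.7 and 62.2 in the ECs and 14, 36.5, 17.5, 44.9 and 8.73 in the MSCs (log2 fold change 1.87, SE 0.48, adjusted p = 0.0207). Again the lowest EC library lay above the highest MSC library.

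Among the Notch ligands, Dll4 was 19.9, 11.6, 6.01, 15.7 and 25.7 in the ECs and had 2 counts in all MSC libraries together (adjusted p = 3.32e-05). Dll1 was 4.97, 7.13, 17, 9.25 and 7.84 in the ECs and at most 0.32 in the MSCs (log2 fold change 6.72, SE 1.45, adjusted p = 0.00816). Jag1 was expressed on both sides, at 135, 94.9, 167, 138 and 72.3 in the ECs and 37.3, 36.1, 37.6, 47.8 and 38.9 in the MSCs (log2 fold change 1.41, SE 0.23, adjusted p = 0.00144). Of the receptors, Notch1 (14.7 in ECs and 0.894 in MSCs) and Notch4 (7.96 and 2.21) were called higher in ECs, and Notch2 higher in MSCs, at 30.3, 25.7, 38.7, 30.9 and 34.1 compared with 2.89, 2.08, 3.57, 2.57 and 1.85 in the ECs (log2 fold change -3.84, SE 0.25, adjusted p = 2.38e-06).

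Cxcl12, the chemokine that retains stem cells in the marrow (chromosome 6, 117168535 to 117181368), was 222, 163, 165, 177 and 146 in the ECs and 144, 263, 259, 363 and 85.2 in the MSCs. The MSC libraries spread on both sides of the ECs and the mean was higher in MSCs (175 ± 28.5 in ECs and 223 ± 109 in MSCs), while the fit to the counts gave a difference of the opposite sign that did not pass (log2 fold change 0.31, SE 0.35, adjusted p = 0.64). Limma on log RPKM, which uses the same RPKM values as the means, gave their sign (-0.195 with 1 or 0.1 added). The counts and the RPKM thus differed in sign, and no direction was established. Il6, an inflammatory cytokine, was 15, 105, 0.38, 109 and 73.1 in the ECs and 26.4, 199, 202, 68.7 and 93.4 in the MSCs and overlapped (adjusted p = 0.525).

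The factors called higher in MSCs that are given here encode secreted proteins. Spp1 (osteopontin) was 3942, 2019, 1384, 5573 and 7383 in the MSCs and 11.7, 0.06, 1.5, 0.11 and 0.08 in the ECs (log2 fold change -10.77, SE 1.76, adjusted p = 0.00135). Ccl2, a chemokine for monocytes, was 969.8, 590.5, 943, 147 and 432 in the MSCs and at most 1.11 in the ECs (log2 fold change -11.26, SE 1.24, adjusted p = 9.17e-05). Igf1 was 224, 154, 333, 175 and 136 in the MSCs and 1.45, 44.2, 41.3, 19.9 and 2.92 in the ECs, where replicates 1 and 5 lay low (log2 fold change -3.51, SE 0.88, adjusted p = 0.0191). Cxcl1, a chemokine for neutrophils, was 120.0 ± 102 in ECs and 1102 ± 695 in MSCs and ranged from 0.87 to 265 among the ECs (log2 fold change -3.42, SE 0.99, adjusted p = 0.0396). Angpt1, the activating ligand of Tek, was 0.134 in ECs and 4.51 in MSCs (log2 fold change -5.61, SE 1.07, adjusted p = 0.00379).

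**Figure D4:**
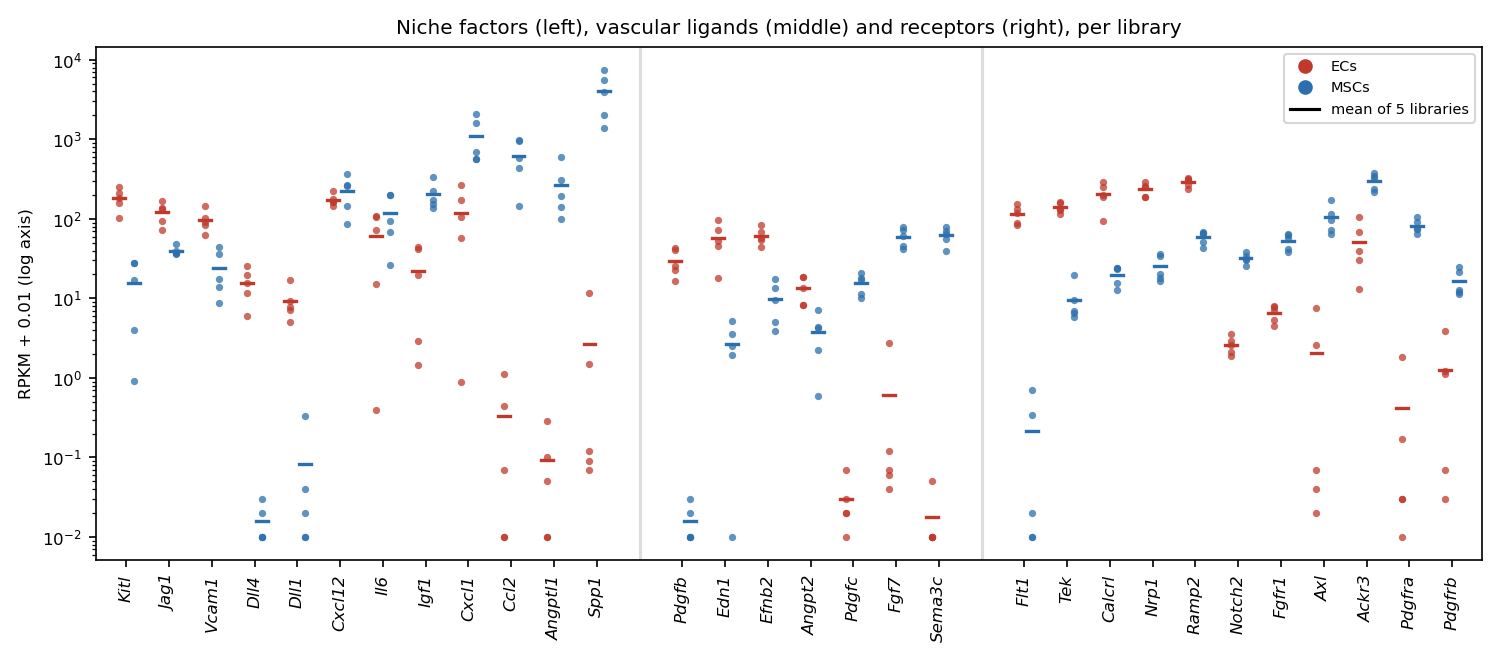
RPKM + 0.01 on a log axis in each of the 5 EC (red) and 5 MSC (blue) libraries for niche factors, vascular ligands and receptors, with a bar at the mean of each population. The EC libraries lay above the MSC libraries for Kitl, Dll4, Pdgfb and Flt1, the order was the reverse for Spp1, Pdgfc and Pdgfra, and the points mixed for Cxcl12 and Il6.

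Ligands and receptors of vascular signaling were set against each other because several pairs are known to join ECs with the cells around them. Of 29 ligand genes, 6 were called higher in ECs and 9 higher in MSCs (median -1.50 over 23 tested). Of 29 receptor genes, all tested, 16 were called higher in ECs and 8 higher in MSCs (median 3.04).

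Pdgfb, the endothelial ligand that recruits pericytes, was 40.1, 25.7, 43.5, 16.4 and 22.9 in the ECs and had 2 counts in all MSC libraries together (adjusted p = 3.13e-06), whereas its receptor Pdgfrb was on the MSC side as given above. Pdgfc, a ligand of Pdgfra, was 11.3, 17.9, 17, 21.1 and 10 in the MSCs and at most 0.06 in the ECs (log2 fold change -9.78, SE 0.83, adjusted p = 1.33e-05), on the same side as its receptor. Pdgfd was 40.2, 96, 103, 3.41 and 127 in the ECs, with replicate 4 below every MSC library, and 21.4, 8.12, 6.86, 6.51 and 7.53 in the MSCs (log2 fold change 2.69, SE 0.77, adjusted p = 0.0386).

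In the angiopoietin system, the receptor Tek was 116, 132, 162, 159 and 128 in the ECs and 19.6, 6.6, 5.79, 9.51 and 6.87 in the MSCs (log2 fold change 3.64, SE 0.36, adjusted p = 4.7e-05). The ligand Angpt1 was called on the MSC side and Angpt2, which opposes it in many settings, on the EC side. Angpt2 was 18.5, 13.7, 8.22, 18.7 and 8.2 in the ECs and 2.21, 4.31, 0.58, 4.25 and 7.24 in the MSCs (log2 fold change 1.64, SE 0.60, adjusted p = 0.0978), and this call was lost in 11 other settings, including 6 of the 10 in which 1 library was left out.

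For the VEGF family, Flt1, the first VEGF receptor, was 83.6, 87.8, 119, 152 and 135 in the ECs and at most 0.7 in the MSCs (log2 fold change 8.97, SE 1.42, adjusted p = 0.00108). Nrp1, a coreceptor, was 237 ± 47.2 in ECs and 25.2 ± 9.46 in MSCs (log2 fold change 3.04, SE 0.28, adjusted p = 2.22e-05). Of the ligands, Figf (VEGF-D) was 4.82, 23.6, 7.35, 15.2 and 21.7 in the MSCs and had 1 count in all EC libraries together (adjusted p = 0.000172). Vegfc was 34.5, 35.6, 145, 57.6 and 0.06 in the ECs and 17.6, 2.52, 24.7, 10.9 and 13.6 in the MSCs and did not pass (log2 fold change 1.78, SE 1.13, adjusted p = 0.37), although it did without replicate 5 of the ECs.

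Other pairs were also measured. Edn1 (endothelin 1) was 45.1, 72.1, 52.9, 96.2 and 17.9 in the ECs and 0, 2.54, 3.57, 5.18 and 1.95 in the MSCs (log2 fold change 4.19, SE 0.97, adjusted p = 0.0125). Calcrl and Ramp2, which together form the adrenomedullin receptor, were 204 ± 74.3 in ECs and 19.9 ± 5.43 in MSCs and 290.2 ± 34.7 in ECs and 58.9 ± 11 in MSCs, respectively (log2 fold changes 3.15 and 2.09), while their ligand Adm was 43.5 ± 31 in ECs and 50.1 ± 22.1 in MSCs and overlapped (adjusted p = 0.748). Fgf7 was 72.1, 45, 79, 42 and 60.2 in the MSCs and 2.77, 0.11, 0.05, 0.03 and 0.06 in the ECs (log2 fold change -6.87, SE 1.33, adjusted p = 0.00417), and the receptor Fgfr1 was also higher in MSCs (6.59 ± 1.55 in ECs and 53 ± 11.7 in MSCs; log2 fold change -3.17, SE 0.29, adjusted p = 2.15e-05). Ackr3, a scavenging receptor for Cxcl12, was 240.0, 346, 373, 215 and 328 in the MSCs and 30.8, 69, 106, 13.1 and 39.8 in the ECs (log2 fold change -2.71, SE 0.48, adjusted p = 0.00246). Axl, a receptor for Gas6, was 65.3, 174, 72.6, 98.2 and 114 in the MSCs and 7.48, 0.06, 2.57, 0.01 and 0.03 in the ECs (log2 fold change -5.87, SE 1.54, adjusted p = 0.0244).

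Markers of other cell types were summed in every library to describe what the sorted fractions held. Cartilage, tendon and bone genes were high in the MSCs. All 8 listed genes of tendon and ligament, 7 of 12 of chondrocytes and 8 of 13 of osteoblasts were called higher in MSCs, and none higher in ECs. Their summed RPKM in the MSC libraries was 1384 to 2225, 3373 to 5913 and 3977 to 9577, respectively, compared with at most 3.35, 3.66 and 53.5 in the ECs. Comp, a matrix protein of cartilage and tendon, was 505, 778, 824, 786 and 1084 in the MSCs (log2 fold change -9.24, SE 1.21, adjusted p = 0.00031). Fmod (fibromodulin) was 546, 264, 368, 160.1 and 267 in the MSCs and listed at 0 in every EC library (at least 27414-fold). Ibsp (bone sialoprotein) was 2903, 1179, 1402, 2340.1 and 1740.1 in the MSCs and 15.4, 1.27, 0.56, 0.04 and 0.02 in the ECs (log2 fold change -9.34, SE 1.71, adjusted p = 0.00294).

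These lists were not complete in the MSCs. Among the defining genes, Sp7, the osteoblast factor, had a mean of 0.42, Dmp1, of osteocytes, was listed at 0, and Matn1, of mature cartilage, at 0, while Acan was 10.9, Col2a1 25.8 and Scx 2.43 in RPKM. Other members of the bone and tendon lists were high in the MSCs. Bglap was 332 ± 242, Bglap2 228 ± 176 and Tnmd 178 ± 139, and none had a mean above 0.054 in ECs. Spp1 stands in the list for osteoblasts and in that for niche factors, Col1a1 in those for collagens and osteoblasts, and Comp in those for cartilage and tendon, so these counts are not independent. Which cells of the fraction held the transcripts was not tested.

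The remaining marker lists had few called genes. Of 9 Schwann cell genes, 3 of them tested, Pmp22 and S100b were called higher in MSCs, and all 9 summed to 546 to 910.3 in MSCs and 14.6 to 85.6 in ECs. The glial factor Sox10 was 0 in MSCs. Of 6 lymphatic genes, 3 of them tested, Flt4 and Reln were called higher in ECs and Pdpn, which stromal cells share, higher in MSCs. Reln was at 2.49 in EC replicate 5 and at most 0.45 in the other ECs, and its call was lost with DESeq2 and without MSC replicate 1, 2, 4 or 5. Of 11 skeletal muscle genes, 4 of them tested, Mylpf was called higher in ECs. Of 10 megakaryocyte and platelet genes, 5 of them tested, Vwf and Selp, which ECs share, were called higher in ECs, and Gp1bb and Itgb3 higher in MSCs. Of 11 genes of neutrophils and monocytes, 6 of them tested, Ly6c2, which has near-identical copies, was called higher in ECs. Of 8 lymphocyte genes, 2 had enough counts to test and neither was called. Libraries from mice of both sexes were present in both populations, with none of 5 sex genes called.

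**Figure D5:**
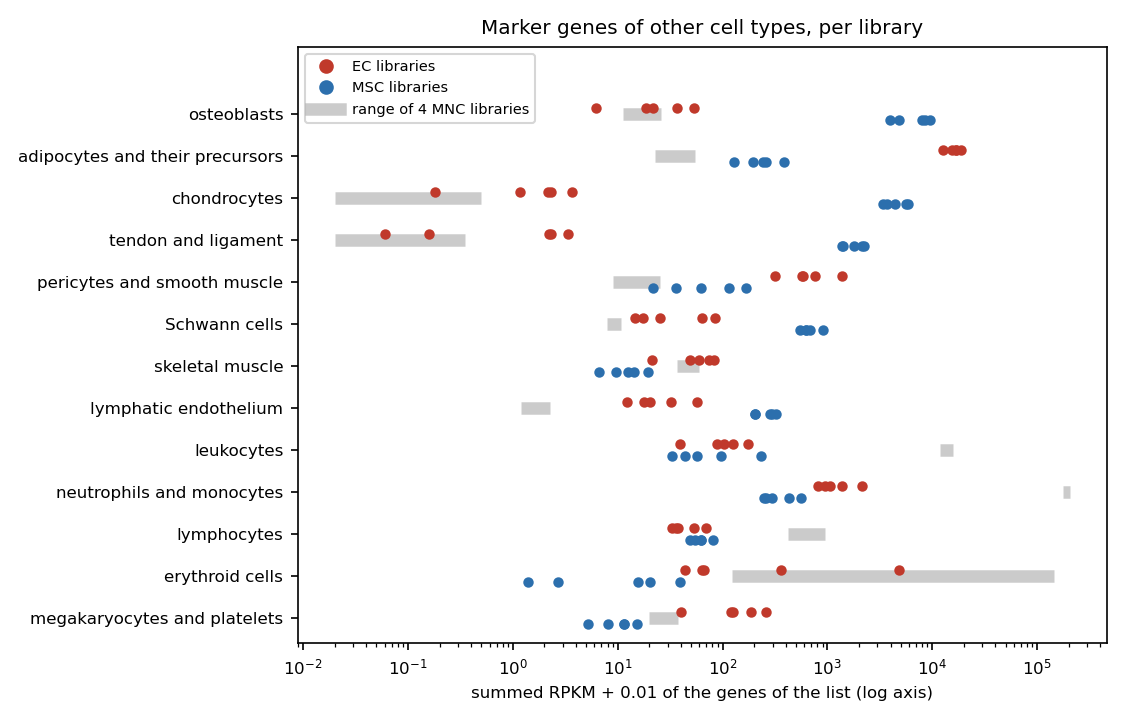
Summed RPKM + 0.01 of marker genes of 13 other cell types on a log axis, with a point for each EC (red) and MSC (blue) library and a grey bar for the range of the 4 wild-type MNC libraries. Cartilage, tendon and bone genes lay far higher in all MSC libraries, the pericyte and smooth muscle sums were at least 314 in ECs and at most 168 in MSCs, and leukocyte genes lay far below the MNCs in both, while 1 EC library reached 4781 for erythroid genes.

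The 13 genes for pericytes and smooth muscle summed to 314 to 1370.2 in the EC libraries and 21.7 to 168 in the MSCs, and 4 were called higher in ECs (Acta2, Tagln, Mcam and Myl9) and 1 higher in MSCs (Cspg4). Without replicate 1 of the ECs, 1 was called higher in ECs. The calls of Acta2 and Mcam were lost when any 1 of EC replicates 1 and 2 or MSC replicates 1, 2, 3 and 5 was left out. That of Acta2 was also lost without MSC replicate 4, that of Mcam without EC replicate 3, and that of Myl9 without EC replicate 1 or MSC replicate 3, 4 or 5. Tagln, an actin-binding protein of smooth muscle, was 283, 267, 179.8, 319 and 80.3 in the ECs and 2.1, 8.3, 0.92, 4.28 and 0.91 in the MSCs (log2 fold change 5.87, SE 0.75, adjusted p = 0.000264). Rgs5, a pericyte marker, was 597, 168, 92.2, 68 and 444 in the ECs and 0.13, 12.4, 149.7, 73.2 and 17.1 in the MSCs and did not pass (log2 fold change 2.22, SE 1.18, adjusted p = 0.269). Myh11 and Cnn1, of mature smooth muscle, were 2.41 and 0.008 in the ECs and 0.304 and 0.012 in the MSCs. Of the same list, Higd1b, Abcc9 and Kcnj8 had means of 25.9, 9.01 and 8.63 in ECs and 0.43, 2.81 and 0.554 in MSCs. Higd1b had too few counts to test, and Abcc9 and Kcnj8 were not called (adjusted p = 0.109 and 0.281). The called gene Acta2 was 53.7 in ECs and 4.06 in MSCs, with overlapping libraries. Means were higher in MSCs for Cspg4, Cnn1 and Des (0.192 in ECs and 0.708 in MSCs for Des). The part of pericytes and smooth muscle cells in the EC values was not tested.

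Pan-leukocyte genes summed to 39.4 to 174 in the ECs and 32.8 to 235 in the MSCs, compared with 11922 to 15675 in the wild-type MNCs, and none of the 4 with enough counts to test, of 14 that include Ptprc of the sort gate, was called. Replicate 1 of the ECs stood apart for globin genes and S100a8. Hba-a2, which encodes alpha-globin, was 2287, 16.9, 194, 38.9 and 9.91 in the ECs, Hbb-bs was 1284, 23.5, 136, 10 and 11.5, and S100a8, of neutrophils, was 1047, 47.8, 1.52, 24.7 and 32.6. The globin genes are near copies of each other. Of 10 erythroid genes, 3 (Hba-a2, Hbb-bs and Hbb-bt) were called higher in ECs of 4 tested, and none without that library. The call of Hba-a2 was also lost when EC replicate 3 or any 1 of MSC replicates 2 to 5 was left out, and that of Hbb-bt when any 1 of MSC replicates 1 to 5 was. Without it, 1212 genes were called higher in ECs and 1545 higher in MSCs, and 103 members of the 17 lists of the plot by list were called higher in ECs, compared with 104 with all libraries.

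Immediate-early genes, which rise when tissue is dissociated, were high in both populations and overlapped between them. The 16 listed genes summed to 1722 to 4493 in the ECs and 1984 to 4869 in the MSCs, compared with 263 to 986 in the MNCs. Fos was 829 ± 263 in ECs and 1285 ± 403 in MSCs, with an adjusted p-value of 0.044 and a ratio under 2, and 1 gene, Nr4a1, was called, higher in MSCs (29.8 in ECs and 77 in MSCs, with overlapping libraries; adjusted p = 0.0986). That call was lost when any 1 of EC replicates 1 to 4 or MSC replicates 2, 3 and 5 was left out. The part of dissociation in the values of Il6, Cxcl1 and Ccl2 was not tested.

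The same contrast was run in the 5 EC and 5 MSC libraries of Flt3 ITD/ITD mice, which share no sample with the wild-type fit. Of 13277 genes tested there, 1083 (8.16%) were called higher in ECs and 1075 (8.1%) higher in MSCs. On the EC side, 742 genes were called in both genotypes, 62% of the wild-type calls and 68.5% of the ITD calls. On the MSC side it was 688, or 52.9% and 64%. No gene was called in opposite directions. Of the wild-type calls that could be tested in the ITD libraries, 1135 of 1160 on the EC side and 1106 of 1154 on the MSC side had the same sign.

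For the lists, the wild-type calls recurred for all 26 endothelial identity genes other than Pecam1, 20 of 21 mesenchymal identity genes, 13 of 14 collagens, all 11 genes of caveolae and lipid uptake, 15 of 16 receptors on the EC side and all 10 niche factors on the MSC side. The recurring calls were 4 of 6 for niche factors on the EC side and 5 of 11 for sinusoidal genes, and the lists were not tested for this difference. Whether the contrast differed between genotypes was tested directly in the 20 libraries. In that fit 1 of 15174 genes passed, Akr1c14, which is in none of the lists, and 1076 had an unadjusted p-value below 0.05, while DESeq2 called 458.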

How the data were processed

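The comparison, its gene lists and the genes named were chosen with earlier results of these data known. Per the labels and the study's methods, cDNA was amplified from 100 sorted cells per library and sequenced, and reads were placed on mm10 transcripts with Bowtie and quantified with RSEM, reads without a unique place being discarded. The authors deposited, in a single table, read counts per gene as estimated by RSEM and written as whole numbers, and RPKM values to the second decimal. All columns were matched to samples by their titles. Intervals and floors cover counting error only.

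Counts were tested with edgeR 4.0.16 in R 4.3.3 (trimmed-mean normalization, its default filter on low counts, quasi-likelihood test, Benjamini-Hochberg adjustment over all genes tested) on the 10 wild-type EC and MSC libraries without covariates. The ratio of mean RPKM and the exact permutation tests used the deposited RPKM. Separate fits used the 10 Flt3 ITD/ITD libraries and the interaction with genotype in 20. Procedures were tested on simulated data with less replicate error than these data, so the share of changes recovered there does not carry over.

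Named genes were the markers of both populations and of the sort gates, up to 5 called members per list and direction with the highest mean RPKM where they were higher, up to 2 uncalled members per list with the highest mean RPKM, the leading called genes of the whole table by ratio and by level, and 3 members of each list of other cells. Values of other genes of the lists (such as Notch1, Notch4, Angpt1, Prox1, Sp7, Acan, Scx and Myh11) are given beyond this rule and were chosen after they were seen. Gene positions and promoters came from RefSeq (GRCm38.p6). Same-numbered EC and MSC libraries did not deviate together (correlations of -0.03 to 0.03), and only 1 of 5 numbers had the same sex pattern in both populations, so that numbers were not taken as pairs. Alternatives were DESeq2 1.42.0, the exact test, limma 3.58.1 on log2(RPKM + 1) or log2(RPKM + 0.1), other scalings, filters and thresholds, a replicate block, all 28 libraries in 1 fit, and each library left out in turn.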

Additional observations from a re-analysis of the deposited data

Results flagged for a closer look

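In groups of 5 libraries, a value was singled out when the gap between the extreme library and its nearest neighbour exceeded Dixon's 95% critical value for the group's range. Of 204 values examined, 20 were singled out. The 1 in 20 groups that chance gives by this criterion holds for independent values with a normal spread. It is no yardstick for these 20, because each gene was examined only in the population with its higher mean. Values also overlapped, as the globin genes entered singly and in the erythroid sum. Of the 20, 10 came from replicate 1 of the ECs and 4 from replicate 1 of the MSCs.

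Replicate 1 of the ECs was far above the other ECs for globin genes and S100a8, with an RPKM of 2287 for Hba-a2 (9.91 to 194 in the others), 1284 for Hbb-bs, 534 for Hbb-bt and 1047 for S100a8 (1.52 to 47.8 in the others). The summed RPKM of erythroid genes was 4781 in this library and 43.8 to 359.8 in the other ECs. Pan-leukocyte genes were highest in replicate 2 (174, compared with 127 in replicate 1), and lymphocyte genes were lowest in replicate 1 (33.0). The same library was highest for Icam1 (118) and lowest for Cd93 (307, compared with 487 to 548), Il6st (50.2), Nfib (72.2, compared with 111 to 114) and Cav1 (1640.1, compared with 2093 to 2267). Whether blood cells had part in these values was not tested.

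Replicate 1 of the MSCs had the fewest total counts (12300624, compared with at least 29185077) and 13692 genes with at least 3 counts (14826 to 15209 in the others). It was the highest MSC library for Bgn (2352, compared with 1217 to 1521) and for the summed RPKM of antigen presentation genes (2512). Replicate 2 of the ECs was highest for Col4a2 (132.5) and replicate 3 for Psmb8 (168.6) and Matn1 (0.1, with the others at 0), and replicate 5 of the ECs was highest for Reln (2.49, compared with 0.3 to 0.45). Adipoq was 18.6 in replicate 4 of the MSCs and at most 0.11 in the other MSCs, and Cnn1 was 0.06 in replicate 5 of the MSCs and 0 in the others.

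The EC to MSC contrast differed between genotypes for Akr1c14, a gene of the aldo-keto reductase family with near copies, by 9.44 on the log2 scale (SE 1.16, adjusted p = 0.00227 by the interaction test of edgeR). Its RPKM was 7.08, 6.91, 50.1, 16.6 and 42.7 in wild-type ECs and 7.06, 1.25, 3.67, 6.47 and 3.98 in wild-type MSCs. In Flt3 ITD/ITD mice it was 23.34, 74.47, 18.82, 23.45 and 28 in the ECs and did not exceed 0.02 in any MSC library.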

How the results depend on the processing

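DESeq2 called 2054 genes higher in ECs and 2380 higher in MSCs, and 1 fit of all 28 libraries called 1978 and 2291. A ratio of at least 8 left 550 higher in ECs. In the Flt3 ITD/ITD libraries DESeq2 called 1936 and 2224, and it found 458 genes for the interaction with genotype. With 1 library left out, the calls ranged from 1041 to 1212 in ECs and from 1141 to 1545 in MSCs, from 922 to 1069 and from 950 to 1338 in the Flt3 ITD/ITD libraries, and from 1 to 4 for the interaction (4 without wild-type EC replicate 1). No gene called with all libraries was called in the opposite direction in any setting. Scaling to library totals moved the median log2 fold change of all genes from 0.05 to 0.26 and turned the balance of calls, to 1494 higher in ECs and 1200 higher in MSCs (55.5% of calls in ECs, compared with 47.9%). Limma on log RPKM turned the sign of Cxcl12 (-0.19 with either constant), which was not called. Gja1, also not called, turned with DESeq2 (-0.00797), with a replicate block (-0.0366) and in 5 of the 10 fits with 1 library left out (-0.0948 to 0.163). The causes were not tested.

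With the replicate number as a block, 937 genes were called higher in ECs and 1283 higher in MSCs, of which 870 and 1112 were among the calls without it. Among the named genes, Acta2, Angpt2, Cxcl1, Myl9, Nes, Nr4a1, Pdgfd and Reln were not called with the block. The numbers did not pair the samples, and 1 of the 5 EC libraries correlated best with the MSC library of its own number.

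The 109 called genes named in the text that were followed across settings leave out the sort gates, the interaction, Bglap, Bglap2 and Tnmd. Of these 109, 75 kept the call in every setting with a value and all 109 kept their sign. Amplified cDNA from 100 cells limits the precision at low levels, where single libraries at 0 and others well above it were common.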
